A study of Mus musculus with 12 samples.

Results

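A set of 9 endoderm genes, the transcription factors *Gata4*, *Gata6*, *Sox17*, *Sox7*, *Foxa2*, *Foxa1*, *Foxq1* and *Hnf4a* and the receptor gene *Pdgfra*, were followed through RNA-Seq of epiblast-like cells (EpiLCs) of both sexes with and without the histone demethylase KDM5C. They were taken by name from the 22911 genes of the deposited tables, and all 9 were found in the tables of both sexes. The choice was made with their levels and their mutant over control ratios in view. Their levels and ratios are therefore given as a description, with standard deviations (SD) or standard errors (SE) and without tests.

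EpiLCs are cultured counterparts of the early post-implantation epiblast and were made from embryonic stem cells (ESCs) kept in 2i and LIF for 4 passages and then grown on fibronectin with FGF2 (10 ng/ml) and Activin A (20 ng/ml) for 48 h. There were 4 genotypes with 3 libraries each, 12 in all: female *Kdm5c* fl/fl and male *Kdm5c* flY, in which the floxed gene is intact, and female *Kdm5c* Δ/Δ and male *Kdm5c* ΔY, in which Cre had removed the exons for the catalytic JmjC domain. The labels give the strain as C57BL/6J, whereas the study's methods describe a mixed background, and the study states that 3 independent ESC lines were used per genotype. The question put to the tables was how the loss of *Kdm5c* changes gene expression in each sex, since *Kdm5c* is X-linked and escapes X-inactivation.

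In the early embryo, *Gata6* and *Gata4* mark the primitive endoderm, the layer that forms beside the pluripotent epiblast and gives rise to visceral and parietal endoderm. *Sox17* and *Sox7* follow them in that lineage, and PDGFRA is its surface receptor, which receives PDGF-A. *Hnf4a* and the *Foxa* genes act in the visceral endoderm, which takes up and secretes nutrients, and *Foxa2* and *Sox17* are used again in definitive endoderm, the lineage made from the epiblast at gastrulation. Epiblast cells keep these genes low.

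Levels are normalized counts, which are reads per gene scaled by a library's size factor. Only means over the 3 libraries of a genotype are in the tables, and whole reads per library were recovered from them. The libraries are named A, B and C within a genotype by falling size factor, and they cannot be tied to a sample number or to a library of another genotype. The recovered reads came to between 5516216 and 11092731 per library, and intervals on them cover counting error only. Male control libraries A and C had reads on 20400 to 20805 genes, against 17191 to 17783 in the other 10 libraries. Male control B and male mutant A stood apart from the others of their genotype, since the chi-square per gene was 16.7 to 29.4 in the pairs with them and 1.97 to 4.41 in the 8 other pairs of libraries of a genotype. Male counts over gene lists are therefore also given without them, in a fit of male controls A and C against male mutants B and C that was added after the data had been seen. That fit keeps the libraries most alike, which lowers the spread by choice. Its p-values therefore run low, and its counts are no independent evidence. It also keeps male controls A and C, which had reads on the most genes. *Kdm5c*, counted over the whole gene and so also over exons outside the deletion, had 2315 to 2429 normalized counts in female controls, 1406 to 1505 in female mutants, 2110.1 to 2371 in male controls and 1897 to 1976 in male mutants. *Pou5f1*, the POU factor of pluripotent cells, had 2750.3 to 4402 normalized counts across the 12 libraries. ESCs are pluripotent as well, so this level does not tell EpiLCs from ESCs and is no check of the EpiLC label. *Otx2*, which marks the exit from naive pluripotency, had 422 to 506 in female controls and 546 to 655 in female mutants. It had 1139.6 to 1662 in male controls and 368 to 429.8 in male mutants. Whether the genotypes had reached the EpiLC state alike was not tested.

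In females, 8 of the 9 genes were higher in all 3 mutant libraries than in any control library, by 8.78 to 17.6 times. *Foxa1* was the exception. In males, none was higher in every mutant library, *Sox17*, *Sox7*, *Gata6* and *Pdgfra* were lower in every mutant library, and the other 5 overlapped. The males differed from the females already in the controls, where the same 8 genes were 2.63 to 9.58 times higher in male than in female EpiLCs with no overlap of libraries, as 18.5% of all genes were. That comparison takes the size factors of the tables of both sexes to be on one scale, which the sources used here do not state. Of all genes tested, 54.8% had no overlap in females, 27.6% as higher and 27.2% as lower in mutants, and 26.5% had none in males, 13.9% as lower. Both at once, higher in female and lower in male mutants, held for 2.99%. By the limma fit, whose adjusted p threshold was 0.05, 8 members passed as higher in females, where 25.4% of all genes did and 50.1% passed in either direction, and 2 passed as lower in males, where 3.59% did and 7.8% passed in either direction. Nothing is read from these counts, since the contrast was in view when the genes were chosen. RNA of a whole culture cannot tell fewer endoderm-like cells from less RNA of these genes per cell.

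**Figure D1:**
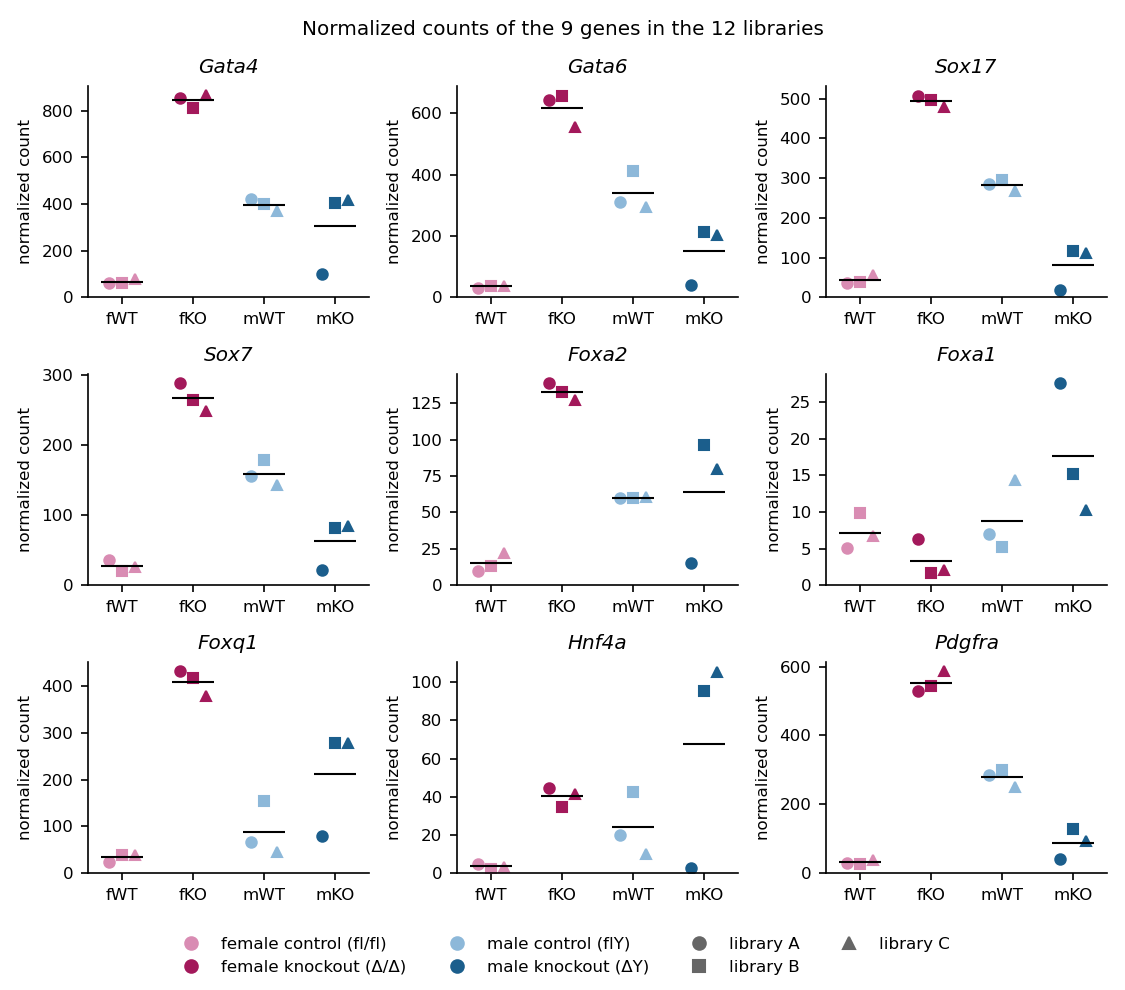
Normalized counts (y axis, from 0, a scale for each gene) of the 9 genes in the 12 libraries, grouped by genotype on the x axis, with fWT and fKO for female control and mutant and mWT and mKO for male control and mutant. Each point is a library, its shape gives the letter and the black line is the mean of 3. Male mutant A lies far below male mutants B and C for 8 genes and above them for *Foxa1*.

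GATA4 and GATA6 are zinc finger factors that bind the GATA motif and act early in the primitive endoderm. *Gata4* (mm9, chromosome 14, 63817759 to 63890529, minus strand) had 63.4, 60.4 and 78.9 normalized counts in female controls A, B and C and 855, 813 and 866 in the female mutants. In male controls it had 419.7, 401 and 371, and in male mutants 99.0, 403 and 418. Male mutants B and C thus lay within or beside the range of male controls, while A lay near the female controls. The log2 ratio of mutant to control was 3.63 with an SE of 0.10 in females and -0.63 with an SE of 0.46 in males.

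*Gata6*, on chromosome 18, had 31.2, 38.4 and 36.7 normalized counts in female controls and 643, 658 and 556 in female mutants. Its male controls had 310.1, 412 and 296, and its male mutants 39.8, 212 and 205. The female mutants were 17.5 times as high as their controls on the means, and all 3 male mutants were below every male control. The log2 ratio was 4.09 (SE 0.11) in females and -1.47 (SE 0.53) in males. Male mutants B and C averaged 0.614 of the male controls for *Gata6* but 1.03 of them for *Gata4*, so the ratio between these GATA genes shifted. Within a library, *Gata6* had 0.739, 1.03 and 0.798 reads per *Gata4* read in male controls and 0.402, 0.525 and 0.490 in male mutants, and this ratio did not overlap between the male genotypes. In females it was 0.465 to 0.636 in controls and 0.642 to 0.810 in mutants.

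*Sox17* and *Sox7* encode HMG box factors of the SoxF subgroup, which act in endoderm and in vessels. *Sox17* (mm9, chromosome 1, 4481009 to 4486494, minus strand) had 36.2, 38.4 and 55.6 normalized counts in female controls and 508, 497 and 479 in female mutants. In males, it had 285, 296 and 267 in controls and 19.5, 116 and 111 in mutants. Male mutant A was below even the female controls, and B and C averaged 0.4001 of the male controls. The log2 ratios were 3.51 (SE 0.13) in females and -2.14 (SE 0.56) in males.

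*Sox7* (mm9, chromosome 14, 64562511 to 64569569, plus strand) went with *Sox17* at a lower level. It had 35.2, 20.9 and 25.6 normalized counts in female controls and 288, 263 and 249 in female mutants, with a log2 ratio of 3.27 (SE 0.17). The male controls had 156, 178 and 142 and the male mutants 21.9, 82.1 and 83.8, with a log2 ratio of -1.54 (SE 0.45). The mutant groups of the sexes were thus on either side of the male controls. *Sox17* lost more against *Gata4* than *Sox7* did. *Sox17* reads per *Gata4* read were 0.679 to 0.737 in male controls and 0.197 to 0.286 in male mutants, whereas *Sox7* reads per *Gata4* read were 0.371 to 0.443 and 0.200 to 0.221.

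FOXA1 and FOXA2 are forkhead factors that can bind closed chromatin and open it in endoderm, and FOXQ1 is a forkhead factor of another subfamily. *Foxa2* (mm9, chromosome 2, 147868613 to 147872705, minus strand) had 10.1, 13.2 and 22.2 normalized counts in female controls and 139, 133 and 127 in female mutants. The male controls were nearly equal, at 59.8, 59.96 and 60.4, while the male mutants had 15.4, 96.3 and 79.6. The male mutants thus lay on either side, with A below and B and C above every control, which gave a male log2 ratio of -0.27 (SE 0.57) but a ratio of means of 1.06. In females the log2 ratio was 3.12 (SE 0.24).

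*Foxa1* (mm9, chromosome 12, 58641618 to 58647108, minus strand) was low in every library and did not share the female pattern. Female controls had 5.03, 9.88 and 6.67 normalized counts and female mutants 6.27, 1.68 and 2.02. Male controls had 6.98, 5.17 and 14.4 and male mutants 27.6, 15.2 and 10.3. Both sexes' genotypes overlapped, and the log2 ratios were -1.03 (SE 0.45) and 0.93 (SE 0.54). These are 2 to 34 reads per library. The 2 reads of female mutant B have an exact Poisson 95% interval of 0.242 to 7.22 reads and the 34 reads of male mutant A one of 23.5 to 47.5, so differences between the lower libraries were not detectable at this depth. Its highest value stood in male mutant A, the library in which the other 8 genes were lowest among the male mutants. *Foxa1* reads per *Foxa2* read were 1.79 there and 0.0127 to 0.75 in the other 11 libraries.

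*Foxq1* (mm9, chromosome 13, 31650039 to 31652839, plus strand) went with the GATA genes in females and away from them in males. It had 23.1, 38.4 and 38.9 normalized counts in female controls and 432, 417 and 380.0 in female mutants, a log2 ratio of 3.61 (SE 0.16). In males it had 65.8, 154 and 44.6 in controls and 80.3, 279 and 279 in mutants, a log2 ratio of 1.25 (SE 0.54). Male mutants B and C lay above every male control, and A fell within their range. Against *Gata6* the male genotypes did not overlap. *Foxq1* reads per *Gata6* read were 0.150 to 0.373 in male controls and 1.32 to 2.02 in male mutants, A included, and 0.633 to 1.06 in all female libraries.

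HNF4A is a nuclear receptor of visceral endoderm and liver that turns on apolipoprotein and transport genes. *Hnf4a* (mm9, chromosome 2, 163332544 to 163398646, plus strand) had 5.03, 2.20 and 3.34 normalized counts in female controls and 44.7, 34.5 and 41.4 in female mutants, a log2 ratio of 3.23 (SE 0.34). Male controls had 19.9, 42.4 and 10.1, and male mutants 2.43, 95.3 and 106. It was the member with the widest spread in the male mutants: B and C averaged 41.2 times A, against 0.463 to 5.81 times for the other members. Male mutant A rests on 3 reads, whose exact Poisson 95% interval is 0.619 to 8.77. The male log2 ratio of 0.60 had an SE of 1.16. *Hnf4a* was also the only member other than *Foxa1* with libraries above the female mutants, in male mutants B and C, which held 2.50 times the female mutant mean. *Hnf4a* reads per *Gata6* read were 0.450 and 0.515 in these libraries and 0.0340 to 0.161 in the other 10.

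PDGFRA is a receptor tyrosine kinase, and the only member that is no transcription factor. *Pdgfra* (mm9, chromosome 5, 75548316 to 75594229, plus strand) had 30.2, 27.4 and 36.7 normalized counts in female controls and 531, 544 and 586 in female mutants. The female ratio was 17.6 times on the means and 4.10 (SE 0.12) on the log2 scale, within the error of that of *Gata6*. The male controls had 285, 301 and 250.1 and the male mutants 40.6, 128 and 93.1, with a log2 ratio of -1.81 (SE 0.35). Each male mutant library was below each male control, including B and C, which averaged 0.396 of the controls. The level of the female mutants was 6.35 times that of the male mutants.

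**Figure D2:**
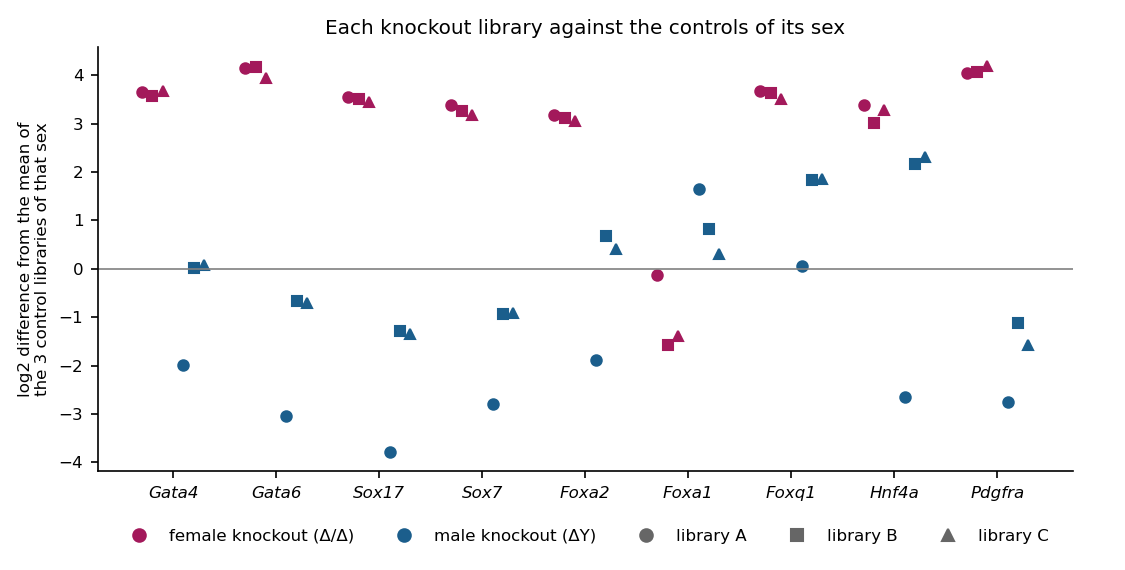
Difference of each mutant library from the mean of the 3 control libraries of its sex, on the log2 scale of normalized count plus 1 (y axis), for the 9 genes (x axis). The female libraries lie together near 3 to 4 for 8 genes. The male libraries B and C run from below 0 for *Pdgfra* and *Sox17* to above 2 for *Hnf4a*, with A apart.

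Male mutants B and C were close to each other and divided the members. Relative to the mean of the male controls they averaged 0.396 for *Pdgfra*, 0.4001 for *Sox17*, 0.523 for *Sox7* and 0.614 for *Gata6*, then 1.03 for *Gata4*, 1.46 for *Foxa2*, 3.17 for *Foxq1* and 4.16 for *Hnf4a*. Male mutant A was instead below every male control for all of these genes but *Foxq1*, which lay within their range. Its summed normalized count over the 9 members was 347, near the 239 to 305 of the female controls, while B and C had 1426 and 1385, the male controls 1456 to 1849.5 and the female mutants 3286 to 3446. With male control B and male mutant A left out, the male log2 ratios were -1.28 for *Sox17* and *Pdgfra*, -0.84 for *Sox7*, -0.54 for *Gata6*, 0.057 for *Gata4*, 0.29 for *Foxa1*, 0.54 for *Foxa2*, 2.34 for *Foxq1* and 2.73 for *Hnf4a*. Their median was then 0.057, against -0.63 with all libraries. The median over all genes was -0.16 in the male fit and 0.0008 once genes under a mean of 10 normalized counts were set aside.

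**Figure D3:**
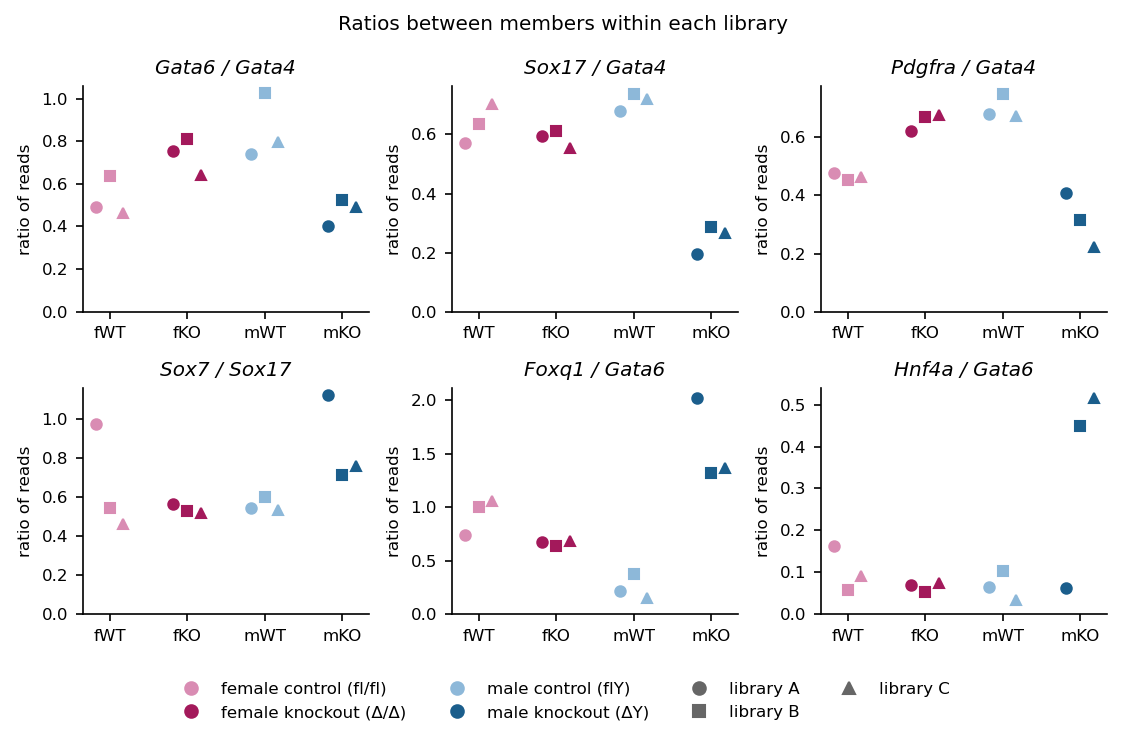
Reads of one member per read of another within each library (y axis, from 0) for 6 pairs of members, by genotype (x axis), with fWT, fKO, mWT and mKO as female control, female mutant, male control and male mutant. A ratio within a library does not depend on its size factor. The male mutant points stand below the male controls for *Gata6*, *Sox17* and *Pdgfra* per *Gata4*, above them for *Foxq1* per *Gata6*, and split for *Hnf4a* per *Gata6*.

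Levels can be compared between genes only per length, so normalized counts were divided by the exonic length of each gene in kb. In female mutants the order of these levels was *Gata4*, *Gata6*, *Sox17*, *Foxq1*, *Pdgfra*, *Sox7*, *Foxa2*, *Hnf4a* and *Foxa1*, from 216 with an SD of 7.14 down to 1.04 with an SD of 0.802 normalized counts per kb (n = 3). *Sox17* and *Foxq1* overlapped there, as did *Pdgfra* and *Sox7*, and the other neighbours did not. In male controls *Gata6* (106 ± 19.9 per kb, SD, n = 3) and *Gata4* (102 ± 6.32) led and overlapped, and *Sox17* followed at 89.6 ± 4.55. In female controls the first 7 genes, from *Gata4* at 17.3 ± 2.55 to *Pdgfra* at 4.67 ± 0.704 per kb, each overlapped the next. In male mutants every gene overlapped the next, with wide SDs, as A differed from B and C. *Hnf4a* took place 7 of 9 in male mutants, above *Pdgfra*, at 13.5 ± 11.3 against 12.9 ± 6.51 per kb, which is well within the spread.

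Over the 12 libraries, the log2 levels of the members other than *Foxa1* went up and down together. Pearson's r of their 28 pairs ran from 0.65 for *Sox17* and *Foxq1* to 0.98 for *Sox7* and *Pdgfra*, with a median of 0.90. The 8 pairs with *Foxa1* had r between -0.60 and -0.28. These are descriptions over libraries that share 4 genotypes and a male library set with strong spread. Of the 14131 genes whose mean reached 10, those most like a member were in part other members, such as *Sox7* for *Sox17* (r = 0.98), *Pdgfra* and *Gata6* for *Sox7* (0.98 each) and *Gata4* for *Foxa2* (0.98). The nearest gene outside the set was *Hs3st1* for *Sox17* (0.99), *Lpar3* for *Sox7* (0.98), *Flrt3* for both *Gata4* (0.99) and *Gata6* (0.99), *Clic6* for *Foxa2* (0.97), *Tm9sf1* for *Foxq1* (0.99), *Prss12* for *Hnf4a* (0.97) and *Epas1* for *Pdgfra* (0.99). *Dab2*, an adaptor of endocytosis in visceral endoderm, was second for *Hnf4a* (0.96). *Foxa1* was below the minimum mean and got no neighbours.

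RefSeq promoter windows on GRCm38.p6 were at hand for 4 of the 9 genes, *Foxa1*, *Foxa2* (3 starts), *Hnf4a* (2 starts) and *Pdgfra*. The stretches printed here hold the motif matches of the members, with that of *Pdgfra* shown as a window without one. They read 5′ to 3′ on the strand of the gene, from 250 to 51 bases before the start, except for *Hnf4a*, where 30 bases around the match are given. Capitals mark the match.
Foxa1, chr12:57546162-57546361, minus strand: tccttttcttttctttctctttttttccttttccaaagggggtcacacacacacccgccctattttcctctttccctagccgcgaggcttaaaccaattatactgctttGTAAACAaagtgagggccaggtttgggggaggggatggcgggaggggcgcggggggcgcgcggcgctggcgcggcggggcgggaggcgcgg
Foxa2, chr2:148045515-148045714, minus strand: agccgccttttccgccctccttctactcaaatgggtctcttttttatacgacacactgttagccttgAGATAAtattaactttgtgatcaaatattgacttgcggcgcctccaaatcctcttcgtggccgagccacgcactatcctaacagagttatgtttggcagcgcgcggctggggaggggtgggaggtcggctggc
Hnf4a, chr2:163506793-163506822, plus strand: gaagaatcaataAGATAAccgggcggggtg
Pdgfra, chr5:75152001-75152200, plus strand: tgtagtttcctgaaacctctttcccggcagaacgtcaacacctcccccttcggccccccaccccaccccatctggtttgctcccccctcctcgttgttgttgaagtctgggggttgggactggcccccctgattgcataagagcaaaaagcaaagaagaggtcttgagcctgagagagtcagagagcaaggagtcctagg

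The 250 bases before each start were searched on both strands for 4 motifs, and no match overlapped another. The GATA letters were AGATAA or TGATAA. For FOX they were TGTTTAC or TGTTTGC. For SOX they were ACAATG or ACAATA. For HNF4 they were CAAAGTCCA. A GATA match lay 183 to 178 bases before a start of *Foxa2* and 52 to 47 bases before a start of *Hnf4a*. A FOX match, on the strand opposite to the gene, lay 141 to 135 bases before the start of *Foxa1*. Of 32851 promoters, 16.6% held the GATA, 7.29% the FOX, 17.4% the SOX and 0.384% the HNF4 letters. The windows also differed in CpG, with 21 in *Foxa1*, 13, 20 and 6 in the *Foxa2* windows, 3 and 4 in those of *Hnf4a* and 4 in *Pdgfra*, against a median of 6. A match of letters is a description of the window and says nothing of a bound factor.

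Genes that work with the members were followed through 7 lists, 70 genes in all, that were written with earlier results of these data known. Of the 65 genes with reads recovered in every library, 41 were higher and 13 lower in female mutants by limma at an adjusted p under 0.05, where 25.4% and 24.7% of all genes were. In male mutants 10 were higher, where 4.21% of all genes were, and 4 were lower, where 3.59% were. Without male control B and male mutant A these counts became 37 and 12, where 17.7% and 25.3% of all genes passed as higher and lower, 42.9% in all. Without male mutant A alone they were 30 and 8, and the fits that left out 1 male library gave 6 to 38 calls in all. Calls over all genes moved in those fits as well, from 1705 with all male libraries to between 333 and 4691.

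RNA of genes for uptake and secreted proteins of primitive and visceral endoderm rose as a whole in females. All 15 genes of this list passed as higher, with a median log2 fold change of 2.30 against 0.004 over all genes. *Cubn*, the receptor cubilin that takes up vitamin-bound and lipid-bound proteins, had 79.5 to 90.0 normalized counts in female controls and 2987 to 3022 in mutants (log2 fold change 5.14, SE 0.07, limma adjusted p = 1.13e-19). *Apob*, the core protein of lipoprotein particles, rose from 26.7 to 51.6 up to 702 to 731 (4.20, SE 0.16, adjusted p = 3.65e-13), and *Spink3*, a secreted protease inhibitor, from 10.1 to 13.2 up to 149.7 to 165 (3.68, SE 0.19, adjusted p = 2.69e-11). In males 0 of the 15 passed in limma, with 3 higher at an unadjusted p under 0.05, and limma voom gave 0 as well, with 1. The male libraries were split for many of these genes. *Cubn* had 1178, 2815 and 1157 normalized counts in male controls and 363, 3477 and 3663 in male mutants, with male control B and male mutants B and C high, whereas *Lrp2*, the receptor megalin, was highest in male mutant A, at 5118 against 4222 and 4355 in B and C. Without male control B and male mutant A, 14 of the 15 passed as higher. The change differed between the sexes for 7 of the 15, all with a lower log2 fold change in males, where 21.2% of all genes passed that test in either direction. In the fit without male control B and male mutant A, 8 had a lower and 2 a higher log2 fold change in males, where 45.6% of all genes passed.

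Parietal endoderm and basement membrane genes separated the sexes more sharply. All 7 genes tested rose in female mutants, 3 of them fell in male mutants and all 7 differed between the sexes. *Thbd*, the thrombin receptor thrombomodulin, had 23.1 to 41.1 normalized counts in female controls and 365 to 419 in female mutants (log2 fold change 3.50, SE 0.17, limma adjusted p = 8.47e-12). In males it fell from 164 to 171 in controls to 34.5 to 47.6 in mutants (-2.07, SE 0.21, adjusted p = 0.000926). *Plat*, tissue plasminogen activator, rose in females (3.27, SE 0.15, adjusted p = 3.60e-12) and fell in males from 189.7 to 209 to 36.2 to 37.5 (-2.40, SE 0.19, adjusted p = 0.000281). *Fst*, the Activin antagonist follistatin, fell in males as well (-1.88, SE 0.26, adjusted p = 0.00364). For these genes male mutant A lay with B and C, unlike for the members. *Col4a2*, a chain of basement membrane collagen, rose in females (2.89, SE 0.06, adjusted p = 6.35e-17), and had 6239 to 7347 in male controls against 2119, 6259 and 5941 in male mutants. Without male control B and male mutant A, 5 of the 7 passed as lower in males. *Col4a1*, *Lama1*, *Lamb1*, *Lamc1* and *Serpinh1* had female mutant means above the limit of 10000 for recovering reads, and *Col4a1* and *Lamc1* also male control means. Genes without reads in every library were not fitted, so only the authors' means are given for them. *Lama1*, a laminin chain, had deposited means of 877 and 13071 in female controls and mutants and of 8027 and 2235 in males. The male means of *Col4a1*, *Lamb1* and *Lamc1* were likewise lower in mutants, at 14225 and 7220.4, 8579 and 4750, and 10694 and 6076, whereas those of *Serpinh1*, a collagen chaperone, were 3902 and 5283.

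Of the PDGF genes other than *Pdgfra*, 4 of 5 fell in females and rose in males. *Pdgfa*, *Pdgfb* and *Pdgfc*, which encode ligand chains, and the other receptor gene *Pdgfrb* fell in female mutants, rose in male mutants and differed between the sexes. The ligand gene *Pdgfd* passed in neither sex, with log2 fold changes of -0.35 (SE 0.41, limma adjusted p = 0.524) in females and -1.68 (SE 0.71, adjusted p = 0.184) in males. *Pdgfa*, whose product binds PDGFRA, had 236 to 269 normalized counts in female controls and 97.0 to 122 in female mutants (log2 fold change -1.22, SE 0.11, limma adjusted p = 3.83e-08). It had 46.5 to 64.7 in male controls and 111, 363 and 355 in male mutants (2.16, SE 0.41, adjusted p = 0.0144). *Pdgfc* fell in females (-1.16, SE 0.17, adjusted p = 1.84e-05) and rose in males (1.51, SE 0.36, adjusted p = 0.0361), with its highest male value, 115, in mutant A. *Pdgfb* rose in males (1.31, SE 0.20, adjusted p = 0.00571), and *Pdgfrb* fell in females (-1.38, SE 0.22, adjusted p = 3.71e-05). With male control B and male mutant A left out, the male counts were 4 higher and 1 lower. Limma voom called 1 of the 4 in males, and leaving out male mutant B or C or male control A or C ended the male calls of *Pdgfa* and *Pdgfc*, at adjusted p = 0.0510 to 0.158.

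Relatives of the members from the same factor families did not follow them as a group. Of 9, 2 rose and 1 fell in females, and 3 rose in males, or 5 with 1 that fell without male control B and male mutant A. *Gata2* and *Gata3*, which act in trophoblast and blood among other places, rose most in males. *Gata2* had 5.75 to 11.96 normalized counts in male controls and 91.7, 222 and 213 in male mutants (4.04, SE 0.42, limma adjusted p = 0.000926). *Gata3* had 7.24 to 40.2 and 89.3, 249 and 208 (2.83, SE 0.61, adjusted p = 0.0248), and fell in females (-1.09, SE 0.22, adjusted p = 0.000494). *Gata2* rose in females as well, though less (0.93, SE 0.29, adjusted p = 0.0122), a call lost without female mutant A or B. *Foxa3*, the third *Foxa* gene, rose in males from 13.0 to 24.8 up to 38.1 to 105 (1.76, SE 0.42, adjusted p = 0.0371), which limma voom did not call (adjusted p = 0.0756). In females it rose from 23.1 to 26.7 up to 33.7 to 48.0 (0.66, SE 0.23, limma adjusted p = 0.0220), a call lost without female mutant B or C or female control B (adjusted p = 0.0502 to 0.109). The male calls of *Gata3* and *Foxa3* were also lost without male mutant B or C or male control A or C, at adjusted p = 0.0557 to 0.155.

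**Figure D4:**
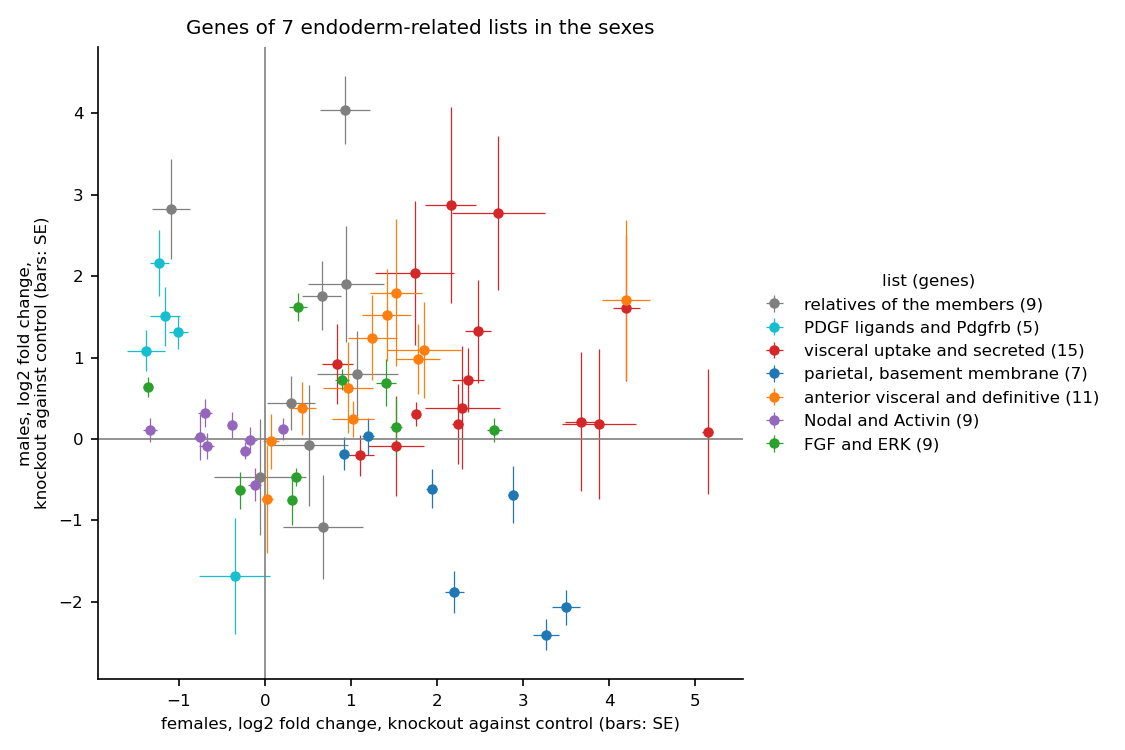
Log2 fold change of mutant against control in females (x axis) and males (y axis), both from limma on log2(normalized count + 1) with SE bars, for the genes of 7 lists with reads recovered in every library. Visceral genes lie to the right near or above 0 in males, parietal genes to the right and below 0 except *Nid1* at 0.03, and PDGF genes to the left and above except *Pdgfd*, to the left and below.

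Regulators of anterior visceral and definitive endoderm rose in females, 9 of 11 genes, the exceptions being *Lefty1* and *Eomes*. *Lhx1*, a homeobox factor of both tissues, went from 3.34 to 6.59 up to 94.3 to 104 (log2 fold change 4.19, SE 0.28, limma adjusted p = 6.36e-10), followed, where the mean reached 10, by the WNT antagonists *Dkk1* (1.78, SE 0.25, adjusted p = 9.61e-06) and *Sfrp5* (1.53, SE 0.30, adjusted p = 0.000332). In males 0 of 11 passed in limma or in limma voom, with 3 and 2 higher at an unadjusted p under 0.05. When male control B and male mutant A were left out, 8 were higher and 1 lower. In males *Lhx1* had 5.98, 22.7 and 7.19 in male controls and 4.87, 89.2 and 87.9 in male mutants. With all libraries none of the 11 passed the test of a difference between the sexes, with 1 at an unadjusted p under 0.05 and 0 in limma voom, but in the fit without male control B and male mutant A 2 had a higher and 1 a lower log2 fold change in males, where 45.6% of all genes passed.

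Of the genes of signals that bear on the members, those of Nodal and Activin moved mainly downward in females. Most FGF and ERK genes moved upward, but not the ligand *Fgf4* or the receptor *Fgfr1*. Of 9 Nodal and Activin genes, 6 fell and 1 rose. The receptor-regulated factor *Smad3* (-1.33, SE 0.08, limma adjusted p = 1.62e-10), the ligand *Nodal* (-0.75, SE 0.07, adjusted p = 8.11e-08) and the receptor *Acvr1b* (-0.69, SE 0.08, adjusted p = 1.37e-06) fell most. In males 0 of the 9 passed in limma or limma voom, with 1 lower in each at an unadjusted p under 0.05, and without male control B and male mutant A 1 was higher and 1 lower. Of 9 FGF and ERK genes, 7 rose and 2 fell in females. Those that fell were *Fgf4* (-0.29, SE 0.06, limma adjusted p = 0.000335) and *Fgfr1* (-1.36, SE 0.06, adjusted p = 1.35e-12). *Spry4* and *Spry2*, feedback inhibitors of receptor tyrosine kinases, and the ETS factor *Etv4* rose most, *Spry4* from 101 to 128 up to 728 to 759 (2.67, SE 0.09, adjusted p = 4.95e-14). In males 3 rose and 1 fell, among them the receptors *Fgfr2* (1.62, SE 0.17, adjusted p = 0.00109) and *Fgfr1* (0.64, SE 0.12, adjusted p = 0.0153) and the adaptor *Grb2* (0.73, SE 0.13, adjusted p = 0.0118), all higher. In the fit of 4 male libraries the counts were 5 and 3, and the call of *Grb2* was lost without male mutant B or C or male control A or C (adjusted p = 0.0582 to 0.0739), as was that of *Fgfr1* without male mutant B or male control A or C (0.0783 to 0.1000).

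Markers of other cell types were counted in the same way. Of all genes, 25.4% passed as higher and 24.7% as lower in females, and 4.21% and 3.59% in males. Without male control B and male mutant A the male shares were 17.7% and 25.3%. The female counts of fibroblast, trophoblast and neural markers were under the 50.1% of all genes that passed in either direction. Summed normalized counts of 10 epiblast markers were 16481 to 16681 in female controls, 18837 to 19242 in female mutants, 18276 to 25800.3 in male controls and 18180.0, 12805 and 12642 in male mutants A, B and C. By limma, 4 of these rose and 5 fell in females, and 4 fell in males, or 9 with 1 that rose without male control B and male mutant A. Male mutants B and C, with the higher sums of the members, had lower epiblast sums than A, though *Utf1* was lower in A (1787 against 2228 and 2267). The sum of the anterior visceral and definitive endoderm list was highest in A, at 2912 against 1211 and 1233, with 2388 from *Lefty1*. Among the male controls, B had the highest sum of both epiblast markers (25800.3) and members (1849.5). Female mutants were above female controls in both. The 10 fibroblast markers, listed to show feeder cells, summed to 2374 to 2436 in female controls and 842 to 889 in female mutants. In males they summed to 770.3 to 931 in controls and 4414 to 4935 in mutants. Most of this sum came from the collagen genes *Col1a1* and *Col1a2*, with means of 2332 and 1642 in male mutants. Of the 10 markers, 4 fell in females and 5 rose in males, *Col1a1* and *Col1a2* among them. The other 5 did not pass in males. Their male log2 fold changes were -1.72 for *Dcn*, -0.74 for *Lum*, -0.31 for *Thy1*, -0.15 for *Prrx1* and 0.006 for *Twist1*. Without male control B and male mutant A, 5 were higher and 2 lower. *Lum* had under 3 normalized counts on average in each genotype. The sum alone is therefore no measure of feeder cells. *Pdgfrb* is in this list as well as in the PDGF list.

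The 10 trophoblast markers summed to 354 to 431 in female controls, 356 to 429 in female mutants, 234 to 330.0 in male controls and 1053, 2789 and 2392 in male mutants A, B and C. In males 6 rose and 1 fell, with the same counts without male control B and male mutant A, and in females 1 rose and 1 fell. *Hand1*, a basic helix-loop-helix factor of trophoblast giant cells and extraembryonic mesoderm, had 17.9 to 25.8 in male controls and 333, 902 and 686 in male mutants (log2 fold change 4.68, SE 0.34, limma adjusted p = 0.000136). The marker that fell in males was *Gcm1*, with 68.2 to 155 in controls and 26.9 to 51.1 in mutants (-1.55, SE 0.36, limma adjusted p = 0.0326). Of the defining trophoblast genes, *Cdx2* had 11.1 to 15.5 normalized counts in male mutants and 0.784 to 3.37 in the other libraries. *Elf5* had at most 4.06 in any library, *Tpbpa* had no reads in females, and *Prl3d1* had none in male mutants. The 10 streak and mesoderm markers had 1 higher and 5 lower in females and 0 called in males (0 at an unadjusted p under 0.05, and 0 in limma voom), or 1 higher and 1 lower without male control B and male mutant A. The 10 neural markers had 2 higher and 2 lower in females and 1 higher in males, or 2 higher and 4 lower without those libraries. What part any of these cell types has in the changes of the members was not tested.

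**Figure D5:**
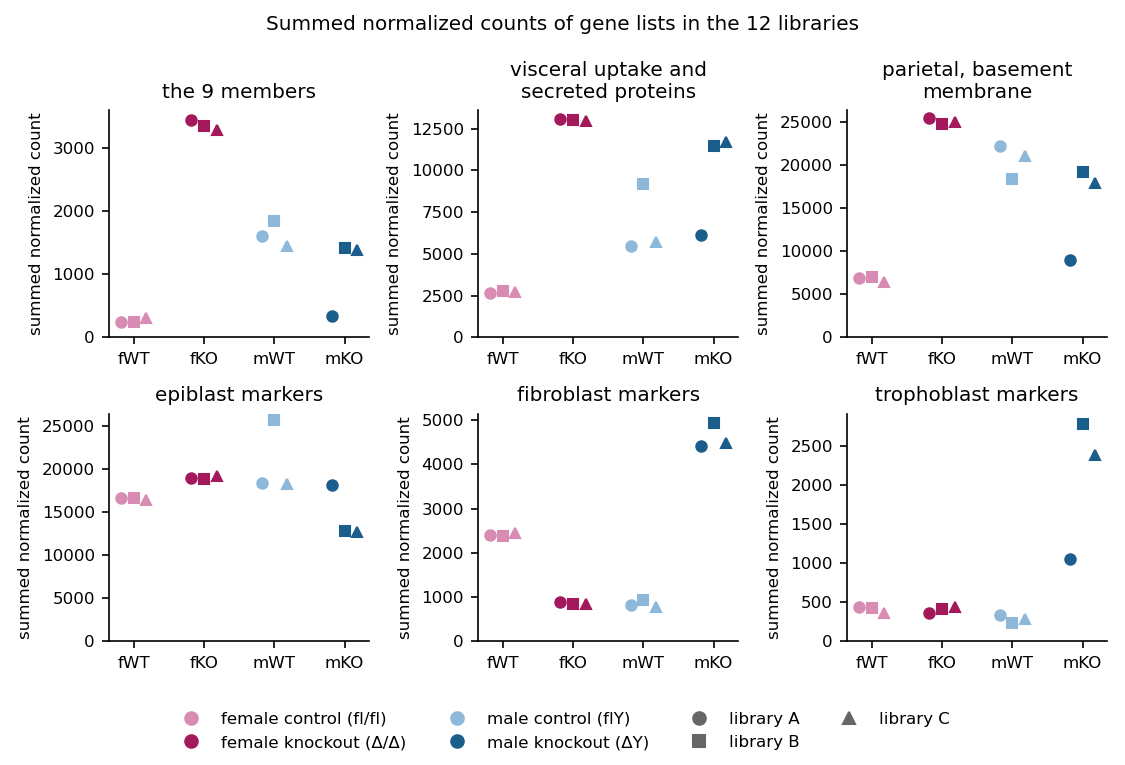
Summed normalized counts (y axis, from 0) of the 9 members and of 5 lists of markers in the 12 libraries, by genotype (x axis), with fWT, fKO, mWT and mKO as above. In the male mutants, B and C are above A for the members and for visceral, parietal and trophoblast genes. They are below A for epiblast markers, while the fibroblast sums of all 3 lie close together. The fibroblast sums come mostly from *Col1a1* and *Col1a2*.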

How the data were processed

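RNA-Seq libraries of EpiLCs (rRNA-depleted, strand-specific, single-end) were mapped by the authors to mm9 with Tophat 2.1.0 and up to 1 mismatch, and uniquely mapped reads were kept. HTseq is named for counting. The gene annotation is not given in the sources used here. The deposited signal columns are mean normalized counts over the 3 libraries of a genotype. The authors' fold changes, p-values and adjusted p-values were not used.

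Each mean was solved as a sum of whole reads divided by 3 library factors, for means up to 10000 (100% of genes with 1 solution, 86.0 to 91.4% of normalized reads, 5516216 to 11092731 reads per library). The solving was tested on simulated data from the lower part of this range, for female controls and male mutants only. The higher means were not covered by that test. Intervals cover counting error only. Limma (3.58.1, R 4.3.3) with an intensity trend was fitted to log2(normalized count + 1) within each sex and, for the difference between the sexes, over all 12 libraries, with Benjamini-Hochberg adjustment over all genes. A fold change on this scale understates that of low genes. Limma voom, a pseudocount of 0.1, a mean of at least 10, upper quartile scaling and fits without each library were alternatives.

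The members and lists were chosen with earlier results of these data known, and 1 gene of the lists is not reported here and was left out of their counts. Named genes are the members, up to 3 called genes of each list per sex with the largest change and a mean of at least 10, the 3 genes closest to each member by Pearson's r, and *Kdm5c*. Genes of the marker lists, those with deposited means only, *Pdgfd*, *Nid1*, *Lrp2*, *Lefty1*, *Eomes* and *Fgf4* were named after their values had been seen. Exon lengths come from GENCODE vM1 on mm9. Separate ESC lines are stated for each genotype but not for each library, so the p-values may in part measure technical spread.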

Additional observations from a re-analysis of the deposited data

Results flagged for a closer look

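The change from control to mutant went in opposite directions in the sexes for 4 members, with every female mutant library above every female control and every male mutant library below every male control, as 2.99% of all genes had. The difference, male minus female on the log2 scale, was -5.65 for *Sox17*, -4.82 for *Sox7*, -5.56 for *Gata6* and -5.91 for *Pdgfra*. These differences were not tested, since the members were chosen with their ratios in view. Without male control B and male mutant A the 4 male log2 ratios remained below 0, at -1.28, -0.84, -0.54 and -1.28.

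Of all genes, 21.2% differed between the sexes by the interaction of sex and genotype (limma, adjusted p under 0.05). The named genes of the lists were picked for large changes within a sex of these same libraries. That choice favours a difference between the sexes, so nothing is read from their count. Among the 26 named genes, 18 passed (limma, adjusted p of at most 0.0296). Of these, 8 had a lower and 10 a higher log2 fold change in males. The lower ones, male minus female, were the parietal genes *Plat* (-5.67), *Thbd* (-5.56), *Fst* (-4.08) and *Col4a2* (-3.57), the visceral genes *Cubn* (-5.05) and *Spink3* (-3.46), and the FGF targets *Spry4* (-2.56) and *Etv4* (-1.38). The higher ones were *Gata3* (3.92), *Gata2* (3.11), *Pdgfa* (3.39), *Pdgfc* (2.66), *Pdgfrb* (2.46), *Pdgfb* (2.31), *Fgfr1* (2.00), *Smad3* (1.45), *Fgfr2* (1.23) and *Acvr1b* (1.01). For *Plat*, *Thbd* and *Fst* the 3 male mutant libraries lay together below the controls, whereas for *Cubn* and *Spink3* male mutant A lay below the male controls and B and C above them.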

How the results depend on the processing

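The female median stayed above 0 under all alternatives run, whereas the split of female calls, 4972 higher and 4827 lower, turned to 4823 and 4959 under upper quartile scaling. The female calls of *Gata2* and *Foxa3* were each lost without some single libraries. The count of genes called, 9799, ranged from 8811 to 9138 when 1 library was left out, and that of list genes, 54, from 51 to 55. The median log2 ratio of the members, 3.51, was 3.56 with a mean of at least 10, which drops *Foxa1*, and 3.43 to 3.69 without 1 library. The male results rest on few libraries. The count of genes called, 1705, was 333 to 4691 without 1 library (4691 without male control B, 4310 without male mutant A, 595 and 527 without male mutants B and C, 413 and 333 without male controls A and C). Calls among list genes, 14, were 6 to 38, with 38 without male mutant A, 6 and 7 without male mutants B and C, and 6 without male control A or C. The male median, -0.63, was -0.98 to 0.049, and turned to 0.049 without male mutant A.

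Leaving out both male control B and male mutant A gave 9352 genes called, 49 of them in the lists, a median of 0.057 and 10014 genes that differed between the sexes, against 4675. That last count was 3554 to 7334 without 1 library, the highest without male control B. With male control B as the single male control, its spread assumed to be that of the mutants, limma called 0 genes and 0 list genes (2803 of 19038 genes at an unadjusted p under 0.05). The cause of these shifts was not tested, and the fit without both libraries keeps the libraries that were most alike. Of the male calls of named list genes, limma voom ended 3. Depth limits *Foxa1* and the lowest libraries of *Hnf4a*, which have 2 to 34 and 2 to 5 reads. No paired analysis was possible because the recovered libraries carry no replicate number.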

Other observations

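Some pluripotency, streak and neural genes, chosen after their values had been seen, also separated the genotypes. *Sox2*, a SOX factor of the epiblast and neural lineage, had 331 to 363 normalized counts in the female controls and 1670.0 to 1962 in the female mutants (log2 fold change 2.37, SE 0.07, limma adjusted p = 7.10e-15), and did not pass the test in males (0.36, SE 0.18, adjusted p = 0.249). *Nanog*, a homeobox factor of the naive epiblast, fell in females from 2742 to 2892 to 1465 to 1547 normalized counts (log2 fold change -0.90, SE 0.05, adjusted p = 1.20e-10) and had a log2 fold change of -0.01 in males (SE 0.16, adjusted p = 0.986). The change differed between the sexes for both genes (limma interaction, adjusted p = 2.31e-05 for *Sox2* and 0.00212 for *Nanog*).

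*Otx2*, which marks the exit from naive pluripotency, fell in males (log2 fold change -1.72, SE 0.15, limma adjusted p = 0.000508), from 1139.6 to 1662 normalized counts in the controls to 368 to 429.8 in the mutants, and rose in females (0.36, SE 0.08, adjusted p = 0.00126). The streak genes T and *Fgf8* fell in females, with log2 fold changes of -3.09 (SE 0.30, adjusted p = 1.15e-07) and -3.20 (SE 0.15, adjusted p = 7.49e-12). In males *Fgf8* had 108.8 normalized counts in mutant A and 7.19 to 26.9 in the other 5 libraries. *Olig2*, a neural factor, had 246 and 247 normalized counts in male mutants B and C and at most 4.98 in the other 10 libraries (male log2 fold change 5.14, SE 1.44, adjusted p = 0.0606). It did not stand for the neural list, whose sum was highest in male mutant A, at 2449 against 1379.5 and 1392 in B and C. *Sox1*, for example, had 231 in A and 26.4 and 35.2 in B and C.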
